A study of Mus musculus with 6 samples.

Results

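PPAR, PGC-1 and ERR proteins form a regulatory circuit that sets the capacity of the heart to burn fatty acids. The 10 genes described here encode the PPAR nuclear receptors (*Ppara*, *Ppard*, *Pparg*), the PGC-1 coactivators (*Ppargc1a*, *Ppargc1b*), the estrogen-related receptors (*Esrra*, *Esrrb*, *Esrrg*), and a pair of retinoid X receptors (*Rxra*, *Rxrg*). They were found by gene symbol, and all 10 were among the 19079 genes of the expression table. All 10 also passed the minimum mean of 10 normalized counts, as did 15181 genes in all. RNA-seq had been performed on ventricles from C57BL/6 mice at P10. The 4 *Runx1* OE mice carried the tamoxifen-inducible, cardiomyocyte-restricted Myh6-CreER together with a Rosa-Runx1 allele, which expresses *Runx1* after recombination. The 2 control mice carried Myh6-CreER without that allele. Tamoxifen was given at P0 and P1 in both genotypes, so the controls also had Cre activation.

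PPARs are nuclear receptors that are activated by fatty acids and bind DNA as heterodimers with RXRs. ERRs bind DNA without a known natural hormone and switch on genes of oxidative phosphorylation and the TCA cycle. Both depend on PGC-1 coactivators, and in the mammalian heart this circuit becomes more active after birth as the myocardium shifts from glucose towards fatty acid oxidation.

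Each value below is the authors' mean for a genotype, in normalized counts, which are estimated read counts divided by a size factor per library. The columns of single libraries carry names that match no sample label, so values per mouse are not given and no test between the genotypes was run. Instead, the deposited sum, maximum and geometric mean were used to set limits within which the libraries of each genotype must lie, and to estimate the spread between libraries. The standard error (SE) of a log2 ratio comes from that estimated spread within genotypes, with n = 4 *Runx1* OE and n = 2 controls. Since this is bulk tissue, fewer cells of a type and less RNA per cell cannot be told apart.

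*Runx1* itself averaged 40.2 normalized counts in the controls and 16622 in the *Runx1* OE mice. No *Runx1* OE library can lie below 5358, and no control library above 63.5, so the genotypes were fully separated for the targeted gene. The libraries averaged 1.94e+07 normalized counts. Of the 8 cardiomyocyte markers, all were detected, and 6 had a lower mean in *Runx1* OE ventricles, with a median log2 ratio of -0.48. Endothelial, fibroblast, macrophage and smooth muscle markers had medians of -0.11, -0.04, -0.04 and -0.17. *Xist*, the RNA of the inactive X chromosome, averaged 4584 in *Runx1* OE and 8.92 in control ventricles. No control library can lie above 17.99, and the *Runx1* OE libraries lie between 1.89 and 7493. With a mean of 4584, most of the *Runx1* OE libraries must lie far above the controls, though which ones is not known here. Leaving out any 1 library, the log2 ratio of *Xist* stays at 7.99 or above. A high *Xist* level thus largely coincided with the *Runx1* OE genotype. The part of sex in the results below was not tested.

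The upstream sequences of the regulators with the largest difference in the PPAR and PGC-1 families are shown first, because these genes carry the main contrast of the section. They are the 250 bases before the start site in RefSeq on GRCm38.p6, and capitals mark GGGCGG, the GC box bound by Sp1-type factors. *Ppard* lies on the plus strand at chr17:28232504-28232753, with a GC content of 69.6%. *Ppargc1a* lies on the minus strand at chr5:51567726-51567975, with a GC content of 48.0%.
Ppard: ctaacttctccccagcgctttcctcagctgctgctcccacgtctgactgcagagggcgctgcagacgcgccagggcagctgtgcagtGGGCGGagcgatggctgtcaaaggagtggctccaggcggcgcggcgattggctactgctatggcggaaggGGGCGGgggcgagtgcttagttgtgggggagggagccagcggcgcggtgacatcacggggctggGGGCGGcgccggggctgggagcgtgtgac
Ppargc1a: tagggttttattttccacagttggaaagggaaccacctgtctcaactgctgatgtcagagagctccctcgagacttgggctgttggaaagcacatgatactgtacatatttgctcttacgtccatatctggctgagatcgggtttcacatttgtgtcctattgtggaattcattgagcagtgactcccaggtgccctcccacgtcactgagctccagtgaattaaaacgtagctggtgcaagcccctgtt
The *Ppard* sequence holds 3 GC boxes on the plus strand, and the *Ppargc1a* sequence holds none. GC boxes occurred in 8 of the 17 windows of 9 regulators and in 35.7% of all 32851 RefSeq windows, each running from 250 bases before to 50 bases after a start site. The core RUNX motif TGTGGT was found on neither strand of these 17 windows, against 16.8% of all windows. Its variant TGCGGT was also not found, against 6.45%.

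AAGGTCA, the extended core element that ERRs bind as monomers, occurred in 4.72% of all windows and in 2 of the 17, 1 of *Rxra* and 1 of *Rxrg*. Both are printed with 12 bases on either side, from the plus strand at chr2:27709231-27709261 and chr1:167618164-167618194, and capitals mark the element.
Rxra: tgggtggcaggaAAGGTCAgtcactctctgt
Rxrg: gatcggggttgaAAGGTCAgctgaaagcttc
The element starts at base -49 from the *Rxra* start site and at base -89 from that of *Rxrg*. The direct repeat AGGTCANAGGTCA, the PPAR-RXR type of element, was in none of the 17 windows and in 0.0396% of all windows. A match describes letters in a window, and a missing match says only that the letters are not there.

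Of the 10 regulators, 7 had a lower and 3 a higher mean in *Runx1* OE than in control ventricles. *Ppard* had the largest ratio, with a mean about 50% above control, and *Ppargc1a* and *Rxrg* were the lowest, each about 24% below. None reached a 1.5-fold difference, which 5.49% of all tested genes reached as higher and 3.96% as lower. Past a log2 ratio of 0.32 in either direction, *Ppard* and *Esrrb* were higher, and *Ppargc1a* and *Rxrg* lower, beside 13.9% and 10.6% of all tested genes. Only *Ppard* differed by over 3 SE, in a direction in which 4.74% of all tested genes did, and no regulator was lower by over 3 SE, beside 4.67%. The median absolute log2 ratio was 0.25 for the regulators and 0.16 for all tested genes. The median spread between libraries of a genotype was 0.20 and 0.19 (SD, log2).

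**Figure D1:**
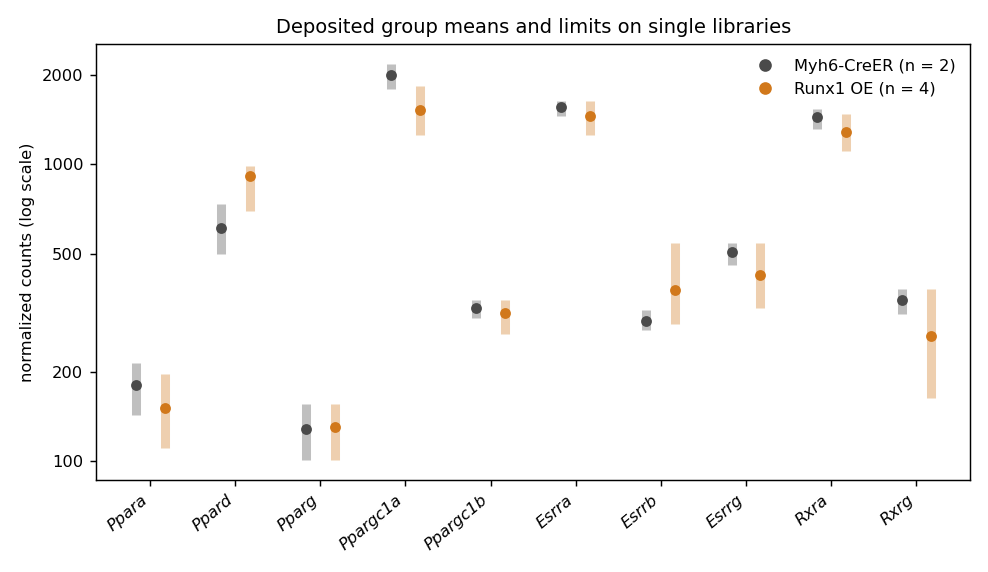
Group means of the 10 regulators in normalized counts (log scale). Points are the authors' means of 2 Myh6-CreER (grey) and 4 *Runx1* OE (orange) mice, and the pale bars are the outer limits within which every library of that genotype must lie. The limits of the genotypes overlap for all 10 genes, least in proportion for *Ppard* and *Ppargc1a*. How often they overlap over all tested genes was not computed.

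*Ppard* encodes PPARδ, the broadly expressed receptor of the family, which drives fatty acid oxidation genes in heart and skeletal muscle. In the files the gene spans chr17:28451674-28520449 on the plus strand, coordinates that overlap the gene on GRCm39. Its mean was 610 normalized counts in control and 913 in *Runx1* OE ventricles. Control libraries must lie between 498 and 733, and *Runx1* OE libraries between 697 and 985. The highest of the 6 libraries was a *Runx1* OE library, and the limits overlap by only 36.7 normalized counts. The log2 ratio was 0.58 ± 0.17 (SE), or 3.51 SE, a distance reached by 6.58% of all tested genes in either direction. Its fold of 1.497 lay just under the 1.5-fold threshold. Leaving out any 1 library, the log2 ratio must lie between 0.31 and 0.87, so the direction does not rest on a single mouse.

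*Ppara* encodes PPARα, the main PPAR of fatty acid oxidation in the adult heart. It had means of 151 in *Runx1* OE and 180 in control ventricles. Its log2 ratio was -0.26 ± 0.26 (SE), a difference no larger than its error. The highest library was a control at 214, and without it the log2 ratio lies between 0.00 and 0.09, so the lower mean of *Ppara* rests on that 1 control. *Pparg* encodes PPARγ, best known as the regulator of fat cell formation. Its means of 130 and 128 were nearly equal, with a log2 ratio of 0.01 ± 0.19 (SE).

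*Ppargc1a* encodes PGC-1α, the inducible coactivator of mitochondrial biogenesis and oxidative metabolism. In the files the gene spans chr5:51611592-51725069 on the minus strand. Its mean was 2010 normalized counts in control and 1527 in *Runx1* OE ventricles. Both control libraries must lie between 1796 and 2186, and the 4 *Runx1* OE libraries between 1256 and 1842. The highest library was a control, and the limits overlap by 45.9 normalized counts. The log2 ratio was -0.40 ± 0.15 (SE), or 2.67 SE, which 12.04% of all tested genes reached in either direction. Without any 1 library it stays between -0.53 and -0.23. *Ppargc1b* encodes PGC-1β, a related coactivator that also works through ERRs, and its means were 315 and 329, with a log2 ratio of -0.06 ± 0.12 (SE).

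*Esrra* encodes ERRα, a broad activator of oxidative phosphorylation genes and a partner of PGC-1α. Its means were 1458 with *Runx1* OE and 1560 without, a log2 ratio of -0.10 ± 0.11 (SE). *Esrrg*, which encodes ERRγ, a receptor needed for the perinatal oxidative shift of the mouse heart, averaged 425 and 505. Its log2 ratio was -0.25 ± 0.19 (SE) and stayed below 0 without any 1 library. *Esrrb*, which encodes ERRβ, a receptor best known from mouse placenta and embryonic stem cells, went the other way, with 376 in *Runx1* OE and 296 in controls. The control libraries of *Esrrb* lie between 276 and 322, whereas *Runx1* OE libraries may reach 544. Its log2 ratio was 0.34 ± 0.31 (SE), and without the highest library, a *Runx1* OE library, it drops to between 0.09 and 0.13. Most of the *Esrrb* difference therefore came from 1 mouse.

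*Rxra* encodes RXRα, an obligate partner of PPARs and other receptors. It averaged 1283 with *Runx1* OE and 1446 without, a log2 ratio of -0.17 ± 0.12 (SE). Without the highest library, a control, the ratio lies between -0.11 and -0.03. *Rxrg* encodes RXRγ, the family member with a restricted pattern that includes striated muscle. Its means were 265 and 349, a log2 ratio of -0.40 ± 0.32 (SE). *Rxrg* had the widest spread of the 10 regulators, with a within-genotype SD of 0.37 (log2), and its *Runx1* OE libraries may lie anywhere from 163 to 379. *Rxrg* and *Ppargc1a* thus had the same ratio, with an SE of 0.32 for *Rxrg* and 0.15 for *Ppargc1a*.

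**Figure D2:**
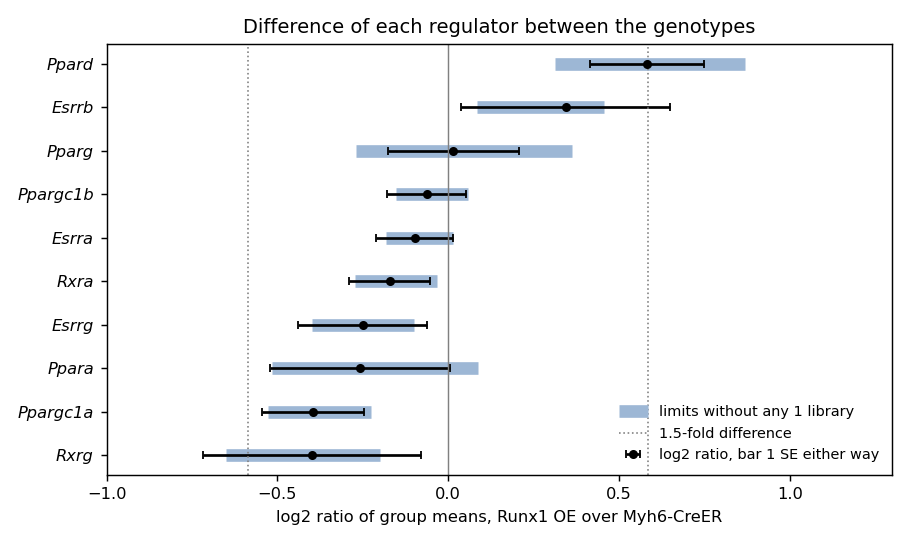
Each regulator's log2 ratio between the genotypes (group means, *Runx1* OE over Myh6-CreER). Points carry bars of 1 SE either way, estimated from the spread within genotypes, blue bands show where the ratio can lie without any 1 library, and dotted lines mark a 1.5-fold difference. The bands of *Ppard* and *Esrrb* lie above 0, those of *Ppargc1a*, *Rxrg*, *Esrrg* and *Rxra* below 0, and the other 4 cross 0.

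Without any 1 library, 6 of the 10 regulators kept the sign of their ratio. The share of all tested genes that kept theirs was not computed, so this count has no background. For *Ppara*, *Pparg*, *Ppargc1b* and *Esrra*, the limits allow either sign. Exons of *Ppara*, *Ppard*, *Pparg*, *Ppargc1b*, *Esrra* and *Esrrb* overlap genes on the opposite strand in GENCODE M39, such as *Cdpf1* for *Ppara* and *Trmt112* for *Esrra*. No source read here says whether the counting used strand, so reads of these genes and their partners may not be separable.

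Levels were compared between family members as normalized counts per kb of the canonical transcript. In control ventricles *Esrra* was the most abundant at 691 per kb, followed by *Ppargc1a* at 311, *Rxra* at 264, *Ppard* at 186 and *Rxrg* at 154. *Esrrg* at 95.4, *Ppargc1b* at 84.3 and *Esrrb* at 70.4 formed a middle group. *Ppara* at 50.8 and *Pparg* at 46.9 were the lowest. With merged exons the controls were ordered differently below *Rxra*, with *Esrrg* at 81.4, *Ppard* at 81.2 and *Rxrg* at 69.3, and *Ppara* at 27.4 lay further above *Pparg* at 18.4. In *Runx1* OE ventricles *Ppard* reached 279 per kb, beside 236 for *Ppargc1a* and 235 for *Rxra*. That order depends on the gene model, since with merged exons *Ppard* was at 122, below *Rxra* at 187 and *Ppargc1a* at 216.

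Within the PPAR family, *Ppard* made up 65.6% of the summed level per kb in control and 75.6% in *Runx1* OE ventricles. With merged exons these shares were 63.9% and 74.5%. *Ppargc1a* made up 78.7% of the PGC-1 pair in control and 74.5% in *Runx1* OE ventricles. *Esrra* held 80.6% and 79.2% of the ERR family. The order of *Esrrb* and *Esrrg* in *Runx1* OE ventricles was 89.3 against 80.2 per kb, and turned round with merged exons, at 62.0 against 68.4. Of *Rxra* and *Rxrg* together, *Rxra* made up 63.1% in control and 66.7% in *Runx1* OE ventricles. These shares rest on group means and carry no error of their own.

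**Figure D3:**
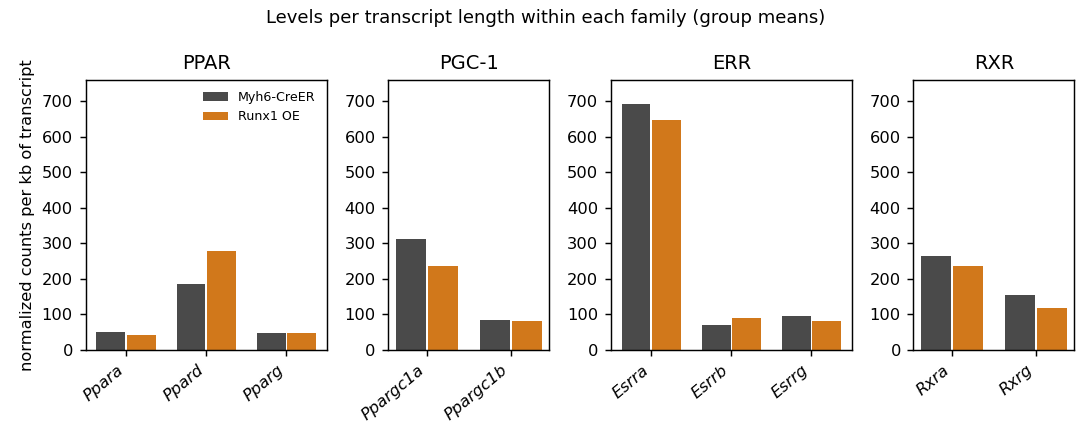
Group means per kb of canonical transcript (linear axis from 0, the same in all panels) for the PPAR, PGC-1, ERR and RXR genes. Grey bars are Myh6-CreER controls and orange bars *Runx1* OE, with no error bars because only group means were used. *Ppard* was the highest PPAR in both genotypes, at 186 and 279 per kb, and *Esrra* the highest ERR, at 691 and 646.

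Of 17 other coregulators and partners of these receptors, 14 had a lower mean in *Runx1* OE ventricles. Their median log2 ratio was -0.11, where all tested genes had a median of 0.01 and 48.1% lay below 0. Only *Lpin1*, whose product lipin 1 coactivates PPARα with PGC-1α, was lower by 1.5-fold, with 887 against 1332 and a log2 ratio of -0.59 ± 0.44 (SE). It lay at the threshold, and without any 1 library its ratio can lie anywhere from -0.96 to -0.33. *Nrip1*, which encodes the corepressor RIP140, averaged 353 against 453, a log2 ratio of -0.36 ± 0.08 (SE). *Tbl1xr1*, which encodes a subunit of the NCoR corepressor complex, had a higher mean, 557 against 450, a log2 ratio of 0.31 ± 0.10 (SE). These 2 coregulators were the only ones that differed by over 3 SE, and both encode parts of the repressive machinery. Of all tested genes, 4.67% were lower and 4.74% higher by over 3 SE. *Perm1*, a muscle regulator downstream of PGC-1α and ERRs, averaged 2445 against 2986, a log2 ratio of -0.29 ± 0.18 (SE).

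Among 12 receptors that pair with RXR, 9 had a lower mean, with a median log2 ratio of -0.29. The direction of that median is not fixed, since its limits reach 0.0060 without the highest library of each gene and 0.093 without any 1 library. With a minimum mean of 50 it was -0.19. *Thrb*, which encodes thyroid hormone receptor β, was the only one lower by 1.5-fold, with 103 in *Runx1* OE against 180 in controls. Its log2 ratio was -0.81 ± 0.40 (SE), and without any 1 library it can lie as near to 0 as -0.57, inside 1.5-fold. *Thra*, which encodes the main thyroid hormone receptor of the heart, averaged 2135 against 2675, a log2 ratio of -0.33 ± 0.12 (SE). *Rara*, which encodes retinoic acid receptor α, averaged 638 against 600, a log2 ratio of 0.09 ± 0.09 (SE). *Nr2f1* averaged 94.6 against 122, a log2 ratio of -0.36 ± 0.09 (SE), and was the only one of the 12 past 3 SE. Over all tested genes, 4.67% were lower and 4.74% higher by over 3 SE.

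Of 31 measured PPAR target genes of 32 listed, 26 had a lower mean in *Runx1* OE ventricles, with a median log2 ratio of -0.30. In this list 6 genes were lower by 1.5-fold and none higher, beside 3.96% and 5.49% of all tested genes. Of these 6, *Pdk4*, *Angptl4* and *Acot1* stay past 1.5-fold without any 1 library, whereas the limits reach -0.53 for *Acot2*, -0.48 for *Ucp3* and -0.41 for *Slc27a1*, inside it. The lowest was *Pdk4*, a kinase that shuts off pyruvate dehydrogenase and so spares glucose, with 2988 against 8013 normalized counts. Its log2 ratio was -1.42 ± 0.35 (SE), and without any 1 library it lies between -1.69 and -1.20. *Angptl4*, a secreted inhibitor of lipoprotein lipase, averaged 748 against 1681, a log2 ratio of -1.17 ± 0.34 (SE).

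*Ucp3*, a mitochondrial uncoupling protein of muscle, averaged 1032 against 1724, a log2 ratio of -0.74 ± 0.44 (SE). *Slc27a1*, a fatty acid transport protein, averaged 1414 against 2122, a log2 ratio of -0.59 ± 0.24 (SE). The acyl-CoA thioesterases *Acot1* and *Acot2* had log2 ratios of -0.81 ± 0.33 and -0.68 ± 0.21 (SE), but they are near-identical neighbours whose reads may have been split in counting. The most abundant targets differed less, with -0.16 ± 0.07 (SE) for *Fabp3*, a fatty acid binding protein, and -0.15 ± 0.14 (SE) for *Lpl*, lipoprotein lipase. *Hadha*, a subunit of the mitochondrial trifunctional protein, stood at -0.43 ± 0.28 (SE). Lower by over 3 SE were 6 targets: *Pdk4*, *Angptl4*, *Acot2*, *Decr1*, *Mlycd* and *Plin5*, the last 3 of which were chosen after their values were seen. The share of all tested genes lower by over 3 SE was 4.67%.

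Of 25 ERR target genes, 21 had a lower mean, but their median log2 ratio of -0.11 was closer to 0 than that of the PPAR targets. The difference between the lists was not tested. *Ckmt2*, the mitochondrial creatine kinase of muscle, was the only one lower by 1.5-fold, with 3629 against 7222. Its log2 ratio of -0.99 had an SE of 0.76, so the difference was close to its error. *Mb*, which encodes myoglobin, averaged 82653 against 120323, a log2 ratio of -0.54 ± 0.23 (SE). *Cox6a2*, a muscle subunit of cytochrome c oxidase, averaged 22381 against 28413, a log2 ratio of -0.34 ± 0.05 (SE) and the largest distance of the list at 7.41 SE. *Sdhd*, a subunit of succinate dehydrogenase chosen after its values were seen, was nearly as far in the other direction, with 6488 against 5251, a log2 ratio of 0.31 ± 0.04 (SE), or 6.91 SE. These were the only ERR targets past 3 SE, 1 lower and 1 higher, beside 4.67% and 4.74% of all tested genes. *Atp5b* and *Slc25a4*, which encode a subunit of ATP synthase and the heart ADP/ATP carrier, stood at -0.10 ± 0.13 and -0.01 ± 0.11 (SE).

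Mitochondrial biogenesis genes were balanced, with 8 of 16 below and 8 above 0 and a median log2 ratio of -0.00. None reached 1.5-fold in either direction. *Mfn2*, a mitochondrial fusion protein, averaged 7220 against 9411, a log2 ratio of -0.38 ± 0.22 (SE). *Dnm1l*, the fission GTPase, averaged 2275 against 2018, a log2 ratio of 0.17 ± 0.11 (SE).

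**Figure D4:**
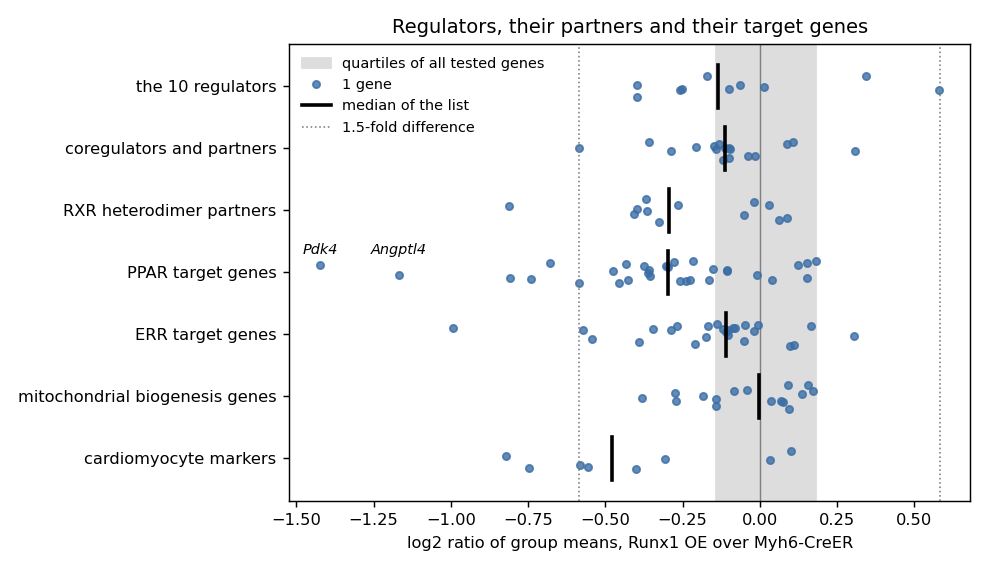
Log2 ratios between the genotypes (*Runx1* OE over Myh6-CreER) of single genes (points) of the regulators, 5 related lists and the cardiomyocyte markers. Thick lines are list medians, the grey band is the quartile range of all tested genes, and dotted lines mark a 1.5-fold difference. *Pdk4* at -1.42 and *Angptl4* at -1.17 lie furthest to the left among PPAR targets, whereas mitochondrial biogenesis genes centre on 0.

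Bulk tissue does not show which cell types carried the regulators and targets. Of the 8 cardiomyocyte markers, 6 had lower means, and the part of cardiomyocyte content in the results above was not tested. *Myh6*, whose promoter drives the Cre, averaged 110044 against 164720, a log2 ratio of -0.58 ± 0.48 (SE), and *Pln*, which encodes phospholamban, had a log2 ratio of -0.82 ± 0.12 (SE). The other 2, *Myl2* and *Tnni3*, which encode a ventricular myosin light chain and cardiac troponin I, stood at 0.10 ± 0.14 and 0.03 ± 0.10 (SE). The 8 cardiomyocyte markers summed to 355640 in *Runx1* OE and 478830 in control ventricles. All 4 atrial markers had higher means in *Runx1* OE ventricles, summing to 1768 against 401, with a median log2 ratio of 2.03. According to the methods the atria had been taken off before RNA extraction, and the cells that carried these RNAs were not identified. *Sln* had the largest ratio, 22.2 against 2.53 and a log2 ratio of 3.13, but no SE could be estimated for it. *Nppa*, which encodes atrial natriuretic peptide, made up 1420 of the 1768. Of the atrial markers with an SE, *Nppa* was the only one past 3 SE, at 2.30 ± 0.75 (SE), beside 4.74% of all tested genes in that direction. *Myl4* and *Myl7*, atrial myosin light chains, stood at 1.51 ± 0.88 and 1.76 ± 1.48 (SE), and without any 1 library they range from 0.81 to 2.85 and from 0.78 to 5.96. Their part in the results for the regulators and targets was not tested. Of the 7 adipocyte markers, 1 had a mean of at least 10, *Fabp4*, which endothelial cells also express, and no skeletal muscle marker of 6 did. The defining fat cell genes *Adipoq* and *Plin1* averaged 0.188 and 0.513 normalized counts in the controls, and 2.74 each in the *Runx1* OE mice.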

How the data were processed

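RNA-seq of P10 ventricles from 4 *Runx1* OE and 2 Myh6-CreER mice was grouped by the genotype in the labels. One label field names left ventricles, the methods whole ventricles. The authors' methods name STAR, mm39, Partek and DESeq2, whereas HISAT2 and mm9 stand in the processing notes of the submitters. GENCODE M39 held 18992 of the 19079 gene identifiers, each at an overlapping position on GRCm39.

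The deposited values are a normalized signal: estimated counts that the authors divided by a size factor per sample (median ratio). The deposited group means, sum, maximum, geometric and arithmetic means were used. The authors' comparison columns hold p-values, adjusted p-values, ratios, fold changes and confidence limits, and were not used. The 6 columns of single samples were not used, since their names match no label. The limma fit planned for them was not run.

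Log2 ratios were taken from the group means, with no pseudocount, for 15181 genes with a mean of at least 10. The weighted group means deviated from the deposited sum by at most 0.755%. The spread within genotypes was estimated, with 4 residual degrees of freedom, from the gap between the group means and the geometric mean, a second-order approximation that holds best for small spreads. Limits on single libraries allow 1% error in the group means. Both steps were tested on simulated data. They, the 3 SE threshold and merged-exon lengths were chosen after seeing the data. The replicates are labelled as separate samples, and the depth in reads is not known from normalized values.

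The members and lists were chosen with earlier results of these data known. Named genes were all regulators, *Runx1*, and of each list up to 5 with the largest ratios, those past 1.5-fold where 6 or fewer were, and the 3 most abundant. Promoter windows came from RefSeq on GRCm38.p6 and were used for 9 regulators. For the regulators, windows on chromosome 18, where *Ppargc1b* lies, were left out. Python 3.11.15, numpy 2.4.6, pandas 2.3.3 and matplotlib 3.10.9 were used.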

Additional observations from a re-analysis of the deposited data

How the results depend on the processing

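No paired analysis was possible because the columns of single libraries carry names that match no label, and leaving out named replicates was not run for the same reason. A pseudocount of 1 and centring on the median of all tested genes moved no regulator by more than its spread. Limits without the highest library reach 0.086 for *Ppara*, 0.36 for *Pparg* and -0.034 for *Rxra* (log2 ratio). Limits without any 1 library, chosen after seeing the data, run from 0.31 to 0.87 for *Ppard* and from -0.27 to 0.36 for *Pparg*, and reach 0.086 for *Ppara* and -0.034 for *Rxra*. The median of RXR partners reaches 0.0060 without each gene's highest library, and lies between -0.48 and 0.093 without any 1 library. The median of mitochondrial biogenesis genes can be as low as -0.19. Past a log2 ratio of 0.32 in either direction, 2 regulators were higher and 2 lower. Over all genes, 834 were higher and 601 lower at 1.5-fold. With no minimum mean these counts were 2013 and 1346, with a minimum of 50 they were 370 and 365, past a log2 ratio of 0.32 they were 2113 and 1610, and at 2-fold 270 and 178. With 2 controls, most of these differences were within the error of these data. Only 2 of the 10 regulators, *Ppard* and *Ppargc1a*, differed by over 2 SE. The share of all tested genes past 2 SE was not computed. Distances as large as those of *Ppard* and *Ppargc1a* were reached by 6.58% and 12.04% of all tested genes. The differences of *Esrrb*, *Esrrg*, *Rxra* and *Rxrg* lay between 1 and 2 SE, and those of *Ppara*, *Pparg*, *Ppargc1b* and *Esrra* below 1 SE.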
